A study of Mus musculus with 158 samples.

Results

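8 hairpins against the transcription factor genes Klf5 and Arntl2 are described here, out of 1000 gene-targeting short hairpin RNAs (shRNAs) against 285 genes. They are all the hairpins whose listed target was Klf5 or Arntl2. Klf5 had 4 hairpins, all in pool 4 of the library, and they were TRCN0000055284, TRCN0000055285, TRCN0000055286 and TRCN0000055287. Arntl2 had 4 hairpins in separate pools, with TRCN0000095702 and TRCN0000095703 in pool 10 and TRCN0000437965 and TRCN0000442230 in pool 18. The hairpins were designed against the mouse transcripts NM_009769 for Klf5 and NM_172309 for Arntl2, and both accessions matched the same symbols in the RefSeq gene table.

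KLF5 is a zinc-finger transcription factor of the Krüppel-like family. It is known for driving proliferation of epithelial progenitor cells, such as those of the intestinal crypt, and it is expressed in epithelial cells of pancreatic ductal carcinoma. ARNTL2, also called BMAL2, is a basic helix-loop-helix PAS protein and a paralogue of the circadian factor BMAL1. It pairs with CLOCK-type partners on E-box sequences, and it has been studied in the spread of lung adenocarcinoma cells.

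The hairpins were carried by PDA530 Met cells, a mouse pancreatic cancer line derived from a liver metastasis, infected with virus at a multiplicity of 0.3 and selected with 3 µg/ml puromycin for 4 days. All groups shared this line and this treatment and differed in where the cells were kept: a pellet at day 0, cells grown in culture to day 28, and the lungs of mice at day 28 after injection into the tail vein. Each pool had 3 mice and cultures in triplicate, whereas a single pellet is described for day 0, so the 3 day 0 libraries of a pool may be technical repeats and the p-values then miss part of the spread. All tumours of a mouse were combined, so a lung library holds what grew in 1 animal. Culture libraries combined the cells of neighbouring pools, so that pool 4 was read in the libraries 4/5A to 4/5C, pool 10 in 9/10A to 9/10C and 10/11A to 10/11C, and pool 18 in 18/19A to 18/19C. The line is a single model, and a hairpin's reads give its share of the population, not the RNA or protein level of its target, which was not measured in these files.

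Of 158 samples in 19 pools, 148 had values, and these gave 142 libraries once repeated runs were summed. In pools 4, 10 and 18 the total was 4525346 to 9319125 reads per library. Levels are given as normalised CPM. Reads are divided by the pool's targeting total times a TMM factor (trimmed mean of M values) and multiplied by 1000000. The targeting hairpins of a pool therefore need not sum to 1000000 in a library. A change is the difference of mean log2(CPM + 1) between groups, tested with limma. Its p-values were adjusted (Benjamini-Hochberg) across all hairpins tested in a comparison, and a hairpin was called at an adjusted p under 0.05. Not every pool entered each comparison. Among all hairpins, 310 of 891 were called between lungs and day 0, 569 of 945 between culture and day 0, and 219 of 889 between lungs and culture. The share of these calls that were higher was 43.9%, 45.0% and 45.2%. It was 24.4%, 26.5% and 44.6% with plain pool totals, 45.8%, 16.1% and 82.4% with scaling on control hairpins, and 30.5%, 20.6% and 60.6% with the deposited values.

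Lung library 10C stood apart. Of its 5658227 reads, 99.2% came from control hairpins and 1946 from the targeting hairpins of pool 10, of which 39 of 51 had any read. At their day 0 shares, 1.12 reads of TRCN0000095702 and 1.23 reads of TRCN0000095703 would have been present among those 1946, and both had 0. With so few reads expected, a loss was not detectable in that library, and pool 10 results are given with and without it. Lung library 16D, labelled for pool 16, drew 71.0% of its reads from pool 10, and whether the labels of 10C and 16D are right was not tested.

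Klf5 hairpins TRCN0000055286 and TRCN0000055287 fell in both the lungs and culture, by 2.83- to 5.10-fold and by 3.38- to 3.66-fold. TRCN0000055284 fell in culture but was higher in the lungs than in culture. TRCN0000055285, the most abundant of the 4, passed the test in no comparison. At day 0 the 4 hairpins lay far apart in abundance, at ranks 6, 12, 22 and 43 from the top of the 51 targeting hairpins of the pool.

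TRCN0000055286 was at 15015, 17187 and 12884 CPM in the day 0 libraries, at 3342, 4367 and 4659 in culture, and at 3203, 2808 and 2780 in the lungs. Every library after day 0 was below every day 0 library, and the lungs lay just below culture without overlap. The hairpin fell by 2.35 on the log2 scale from day 0 to the lungs (SE 0.21, limma adjusted p = 0.00092, n = 3 and 3). It fell by 1.87 from day 0 to culture (SE 0.19, limma adjusted p = 4.66e-05, n = 3 and 3). Between lungs and culture the difference was -0.48 (SE 0.28, limma adjusted p = 0.259), which did not pass the test.

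TRCN0000055287 was at 31771, 27131 and 29051 CPM at day 0, at 8711, 9023 and 8228 in culture, and at 9834, 11641 and 9618 in the lungs. The day 0 libraries again stood above all others, and here the lungs lay above culture. It fell by 1.5 on the log2 scale from day 0 to the lungs (SE 0.15, limma adjusted p = 0.00134, n = 3 and 3). In culture it fell by 1.76 (SE 0.16, limma adjusted p = 1.66e-05, n = 3 and 3). The difference between lungs and culture, 0.26 (SE 0.25, limma adjusted p = 0.485), did not pass the test, and its interval ran from -0.34 to 0.85. Scaled on control hairpins it was a call, at 0.95 (limma adjusted p = 0.0441).

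TRCN0000055285 was at 49133, 38762 and 45437 CPM at day 0, at 25185, 46825 and 48461 in culture, and at 39128, 20510 and 33188 in the lungs. All 3 groups overlapped. The difference from day 0 was -0.57 in the lungs (95% interval -1.25 to 0.11, limma adjusted p = 0.172) and -0.20 in culture (interval -0.77 to 0.37, limma adjusted p = 0.507). Lungs and culture differed by -0.37 (interval -1.29 to 0.55, limma adjusted p = 0.515). With other scalings the culture value was a call, at -0.62 with plain pool totals, -1.09 with control hairpins and -0.97 with the deposited values.

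TRCN0000055284 was at 683, 958 and 1228 CPM at day 0, at 87.4, 132 and 602 in culture, and at 9388, 1327 and 2162 in the lungs. Culture was below day 0 and the lungs above it, with no overlap, and lung library 4A held more of it than any other library. From day 0 to culture it fell by 2.28 on the log2 scale (SE 0.76, limma adjusted p = 0.0289, n = 3 and 3). Lungs exceeded culture by 3.96 (SE 1.02, limma adjusted p = 0.0295, n = 3 and 3), the highest value among the 51 hairpins tested in the pool. Lungs against day 0 gave 1.69 (SE 0.78, limma adjusted p = 0.151), which was not a call. It was 0.86 without lung replicate A and 2.28 without lung replicate B (limma adjusted p = 0.175 and 0.0634), and DESeq2 called it higher (2.17, adjusted p = 0.0202).

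Both calls of TRCN0000055284 were lost when some single replicates were left out. The fall in culture was not called without day 0 replicate B (-2.26, limma adjusted p = 0.0971) or C (-2.08, 0.106). It was also not called without culture replicate A (-1.72, limma adjusted p = 0.061) or by edgeR (-1.81, adjusted p = 0.0763). Without culture replicate B or C it was called, at -2.01 and -3.10 (limma adjusted p = 0.041 and 0.00111). The difference of lungs from culture was not called without culture replicate A (3.41, limma adjusted p = 0.0984) or B (3.70, 0.0986) or without lung replicate A (3.14, 0.0708). With the replicate letter as a block it was 3.96 and not called (limma adjusted p = 0.0609).

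Arntl2 was read in separate pools, and its hairpins did not share a direction. TRCN0000095703 nearly disappeared from the lungs and also fell in culture, 8.18-fold. TRCN0000095702 and TRCN0000442230 fell in culture, 2.59- and 3.07-fold, and neither passed the test in the lungs. TRCN0000437965 rose 2.71-fold in culture. Both hairpins of pool 10 were rare from the start, at ranks 46 and 47 of 51 at day 0, and those of pool 18 at 41 and 44 of 53.

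TRCN0000095703 was at 429, 387 and 453 CPM at day 0. In culture it was at 101, 63.1 and 12.9 CPM in libraries 10/11A to 10/11C and at 34.9, 43.0 and 132 in 9/10A to 9/10C. In the lungs it was at 8.86 CPM in 10A, 0.75 in 10B and 0.00 in 10C. Leaving aside 10C, whose 0 reads carry no order, the groups were separate, with day 0 highest and the other two lung libraries lowest.

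The lung values of TRCN0000095703 came from 40 reads in 10A (exact Poisson 95% interval 28.58 to 54.47), 3 reads in 10B (0.62 to 8.77) and 0 in 10C, against 2540 to 3442 reads at day 0. These intervals cover counting error only, because PCR copies cannot be told from separate molecules. Without 10C, the hairpin fell by 6.67 on the log2 scale from day 0 to the lungs (SE 0.77, limma adjusted p = 0.0016, n = 2 and 3). With 10C it fell by 7.35 (SE 1.14, limma adjusted p = 0.00579, n = 3 and 3), the lowest value of the 51 hairpins tested in the pool. The size of this fall depends on the constant added to so few reads, and with 10 in place of 1 it was -5.09 with 10C (limma adjusted p = 0.000806). DESeq2 on the same reads, with 10C, gave -3.09 and made no call (adjusted p = 0.467).

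From day 0 to culture, TRCN0000095703 fell by 3.03 (SE 0.65, limma adjusted p = 0.00201, n = 6 and 3). Against culture, the lungs were at -3.64 without 10C (SE 0.98, limma adjusted p = 0.018, n = 2 and 6), and -4.32 with it (SE 1.00, limma adjusted p = 0.0119, n = 3 and 6). With a constant of 10 it was -2.32 with 10C (limma adjusted p = 0.0265). This difference was not called by DESeq2 (-2.25, adjusted p = 0.121), with only the 9/10 cultures (-4.53, limma adjusted p = 0.0546), with only the 10/11 cultures (-4.12, 0.0735), or without culture replicate A (-4.21, 0.0547) or B (-4.30, 0.0647). Reads of this hairpin were found in 2 of 130 libraries of other pools.

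TRCN0000095702 was at 398, 374 and 385 CPM at day 0. In culture it was at 177, 92.2 and 174 CPM in 10/11A to 10/11C and at 158, 107 and 218 in 9/10A to 9/10C. In the lungs it was at 284 CPM in 10A, 91.5 in 10B and 0.00 in 10C. Leaving aside 10C, whose 0 reads carry no order, the culture libraries and both other lung libraries were below day 0, and lungs and culture overlapped.

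From day 0 to culture TRCN0000095702 fell by 1.37 (SE 0.40, limma adjusted p = 0.0109, n = 6 and 3). The size of this fall depended on the scaling, though each was a call. It was -1.16 with DESeq2 size factors, -1.84 with plain pool totals, -2.78 with control hairpins and -2.97 with the deposited values. Lungs against day 0 gave -1.25 without 10C (SE 0.53, limma adjusted p = 0.111, n = 2 and 3) and -3.70 with it (SE 2.30, limma adjusted p = 0.26, n = 3 and 3), and neither was a call. Lungs against culture gave 0.12 without 10C (SE 0.66, limma adjusted p = 0.911) and -2.32 with it (SE 1.57, limma adjusted p = 0.311). With 10C kept, edgeR gave 0.27 and DESeq2 gave 0.39, so the sign of this uncalled value turned with the library and with the test.

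TRCN0000437965 was at 1139, 1466 and 1174 CPM at day 0, at 2539, 3619 and 4237 in culture, and at 575, 2347 and 787 in the lungs. Culture was above day 0 and above the lungs without overlap, while lungs A and C were below day 0 and lungs B above it. It rose by 1.44 from day 0 to culture (SE 0.26, limma adjusted p = 0.00227, n = 3 and 3), at rank 52 of 53 from the lowest. Lungs against day 0 gave -0.29 (SE 0.60, limma adjusted p = 0.739), and lungs against culture gave -1.73 (SE 0.62, limma adjusted p = 0.0766). Without lung replicate B both were calls, at -0.89 (limma adjusted p = 0.0286) and -2.33 (limma adjusted p = 0.00515). Lungs against culture was also a call with DESeq2 size factors, at -1.91 (limma adjusted p = 0.0256).

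TRCN0000442230 was at 616, 769 and 628 CPM at day 0, at 347, 319 and 91.9 in culture, and at 789, 591 and 1219 in the lungs. Culture was below the other groups, and lungs and day 0 overlapped. It fell by 1.62 from day 0 to culture (SE 0.55, limma adjusted p = 0.04, n = 3 and 3). Lungs against day 0 gave 0.31 (SE 0.52, limma adjusted p = 0.678), and lungs against culture gave 1.93 (SE 0.76, limma adjusted p = 0.101). The fall in culture was not called by edgeR (-1.41, adjusted p = 0.0536), with DESeq2 size factors (-1.44, limma adjusted p = 0.0506), or without day 0 replicate A, B or C (limma adjusted p = 0.0919, 0.127 and 0.0949).

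All 8 hairpins passed the filter on low reads in every comparison. Between lungs and day 0, 3 of the 8 hairpins were called, all lower (2 of Klf5 and 1 of Arntl2), where 34.8% of all tested hairpins were called, 19.5% lower and 15.3% higher. Between culture and day 0, 7 of the 8 were called, with 3 Klf5 and 3 Arntl2 hairpins lower and 1 Arntl2 hairpin higher, where 60.2% of all were called, 33.1% lower and 27.1% higher. Between lungs and culture, 1 Klf5 hairpin was higher and 1 Arntl2 hairpin lower, against a background of 24.6% called, 13.5% lower and 11.1% higher. The comparisons share libraries (day 0, culture or lungs) in pairs, and none is independent of the others.

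The median change of the 4 Klf5 hairpins was -1.03 between lungs and day 0, -1.81 between culture and day 0 and -0.06 between lungs and culture. For the 4 Arntl2 hairpins, taken over both pools, it was -2.0, -1.5 and -2.03, and without 10C it was -0.77 between lungs and day 0 and -0.80 between lungs and culture. Over all tested hairpins it was -0.14, -0.15 and -0.13. The members share their libraries within a pool and are not replicates of a gene's effect.

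How far hairpins against 1 gene lay apart varied between sets and comparisons. The changes of the 4 Klf5 hairpins spanned 4.04, 2.08 and 4.45 on the log2 scale in the 3 comparisons, in the order given above. Across all sets of 4 hairpins against 1 gene in 1 pool, the median span was 3.07 (52 sets), 2.52 (59 sets) and 2.60 (52 sets). The Arntl2 pair in pool 10 was 3.66, 1.66 and 2.00 apart, and without 10C it was 5.42 apart between lungs and day 0 and 3.76 between lungs and culture. The pair in pool 18 was 0.60, 3.05 and 3.66 apart. The median for pairs was 1.25 (177 pairs), 1.28 (183 pairs) and 1.5 (175 pairs).

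Control hairpins give the background of the screen. Each pool carried the same 8, among them 2 non-targeting hairpins and 1 against GFP, while the other 5 were against genes. A culture library holds the controls of both its pools. For a like comparison, members and controls were divided by plain targeting totals, of both pools for controls in culture. On that scale the pool 4 controls ran from -4.97 to 1.47 between lungs and day 0 (median -1.95), around the -2.55 and -1.70 of Klf5 hairpins TRCN0000055286 and TRCN0000055287.

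In culture against day 0, the pool 4 controls ran from -2.88 to 0.39 (median -2.08), and the 3 called Klf5 hairpins were at -2.70, -2.29 and -2.18. The lowest of these controls was a non-targeting hairpin, at -2.88, and the other non-targeting hairpin was at 0.39. No Klf5 hairpin was below all controls in any comparison, though TRCN0000055284, at 4.19, was above all of them between lungs and culture, where their highest value was 1.54. Between lungs and day 0 it was at 1.49, where the highest control, at 1.47, was against a gene and the non-targeting and GFP hairpins were at 0.35, -3.67 and -0.56.

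Arntl2 hairpin TRCN0000095703 was below all 8 controls of pool 10 in each comparison, with 10C left out. It was at -7.28 against a lowest control of -5.36 between lungs and day 0, at -3.50 against -3.19 between culture and day 0, and at -3.78 against -2.19 between lungs and culture. TRCN0000095702, at -1.86, -1.84 and -0.02, lay within the controls' range. In pool 18, TRCN0000437965 in culture against day 0, at 1.15, was above the highest control, at 0.55, and TRCN0000442230, at -1.90, was above the lowest, at -2.11. Between lungs and culture TRCN0000442230, at 1.83, was above the highest control, at 1.57, and the non-targeting and GFP hairpins were at -0.34, -1.09 and 0.51.

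The likeness of 2 hairpins was described by Pearson's r of log2(CPM + 1) over the libraries of their pool, which share depth and scaling, so that r mostly follows the differences between groups. Klf5 hairpins TRCN0000055286 and TRCN0000055287 had r = 0.921 with each other over 9 libraries. Cacna2d1 hairpin TRCN0000068996 was most like both (0.954 and 0.978). TRCN0000055284 had r of 0.038, -0.045 and 0.148 with the other Klf5 hairpins and was most like hairpins against Acacb (0.945), Adam8 (0.918) and Dpp6 (0.816). TRCN0000055285 was most like a hairpin against Dpep1 (0.813).

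Between the Arntl2 hairpins of pool 18, r was -0.827 over 9 libraries. TRCN0000437965 was most like a hairpin against Fmn2 (0.878), and TRCN0000442230 was most like 1 against Iqgap1 (0.846). In pool 10 the Arntl2 pair had r = 0.660 over 11 libraries without 10C and 0.720 over 12 with it. TRCN0000095703 was most like a hairpin against Whsc2 (0.914 without 10C), and TRCN0000095702 was most like 1 against Zscan20 (0.878) without 10C and 1 against Wdr3 (0.977) with it.

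The library held 44 hairpins against 13 other genes listed as transcription factors or their co-regulators, of which 39 were tested against day 0. Between lungs and day 0, 3 were higher and 13 lower (median -0.05), against 15.3% higher and 19.5% lower among all tested hairpins. Between culture and day 0, 9 were higher and 15 lower (median -0.27), against 27.1% and 33.1% among all. Between lungs and culture 2 of 38 were higher and 6 lower (median -0.48), against 11.1% and 13.5% among all. The hairpin TRCN0000233432 against Cnot2, a subunit of the CCR4-NOT deadenylase complex, was the member of that list that shared a pool with an Arntl2 or Klf5 hairpin. In pool 18 it fell by 2.21 in the lungs (SE 0.32, limma adjusted p = 0.00199) and by 0.58 in culture (SE 0.13, limma adjusted p = 0.00709). Lungs against culture gave -1.63 (SE 0.37, limma adjusted p = 0.013).

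The closest relative of Klf5 in the library was Klf6, another Krüppel-like factor, named here after its values were seen. Of its 3 tested hairpins, TRCN0000234196 was higher in the lungs than at day 0 by 1.89 (SE 0.43, limma adjusted p = 0.0238, n = 2 and 3). The lung libraries of its pool were 16D, with 42538 reads from hairpins of pool 16 and 71.0% of its reads from pool 10, and 16E, with 4898720. The hairpin was at 28214 CPM in 16D and 72944 in 16E, against 10450 to 14557 at day 0. Without 16D the difference was 2.57 (SE 0.20, limma adjusted p = 0.00121, n = 1 and 3), with the single lung library assumed to vary like the day 0 libraries. The other two, TRCN0000218241 and TRCN0000218960, were rare, with mean log2(CPM + 1) of 4.65 and 2.99 at day 0, and were at 0.25 (limma adjusted p = 0.908) and -0.88 (limma adjusted p = 0.64). In culture none of the 3 was called, at 0.36, 0.28 and 2.18 for TRCN0000234196, TRCN0000218241 and TRCN0000218960 (limma adjusted p = 0.496, 0.819 and 0.0967). Lungs against culture gave 1.53, -0.03 and -3.06 in the same order, with no call (limma adjusted p = 0.0914, 0.988 and 0.17), and 2.22 for TRCN0000234196 without 16D, which was a call (limma adjusted p = 0.0378, n = 1 and 5).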

How the data were processed

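Hairpin sequences were counted by the authors from PCR-amplified genomic DNA, and the files hold 1 scaled signal value per hairpin and library, as deposited. BWA 0.5.9 is named per the submitters' processing notes, and for the scaling and genome build the sources used here give nothing. Every deposited signal value was a whole multiple of the library's smallest value (27241 of 27241, tolerance 0.01 reads), and these multiples were used as reads, with a hairpin that had no value taken as 0. Repeated runs were summed.

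Reads were scaled per pool to the targeting hairpins of that pool with TMM factors (edgeR 4.0.16), and log2(CPM + 1) was fitted with limma 3.58.1 in R 4.3.3 (trend and robust options), with the 2 groups compared in a fit per pool. A hairpin needed a mean of at least 10 reads to be tested. Benjamini-Hochberg adjustment ran across all pools tested in a comparison together. The planned test did not say whether TMM factors use all libraries of a pool or only the 2 groups compared. All libraries were used, a choice made after both counts of calls had been seen (310, 569 and 219 against 301, 573 and 221), and members called were 3, 7 and 2 either way.

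Alternatives were other scalings, edgeR and DESeq2 1.42.0 tests on the reads, no filter, a pseudocount of 10, and leaving libraries out. TMM over 2 groups, leaving out 10C alone, single culture sets for pool 10, the comparison with controls on plain totals, and the Arntl2 summaries without 10C and Klf6 values without 16D were added after seeing the data. All 8 hairpins of the genes were named, with the hairpins most like each by r and any listed regulator in a member's pool. The members and lists were chosen with earlier results of these data known. The code was checked on simulated data.

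The labels name replicates by letter and do not say that these come from separate infections, so p-values measure only the spread between these samples, which for day 0 may be technical. Letters were not taken to pair samples: 17 of 49, 28 of 59 and 24 of 54 same-letter pairs had deviations correlated over 0.1. In pool 4 all 3 pairs did so for lungs with day 0 and for culture with day 0 but not for lungs with culture, where r was -0.01 to 0.12.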

Additional observations from a re-analysis of the deposited data

Results flagged for a closer look

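The change from day 0 differed between lungs and culture, by the limma test of that difference, for 2 hairpins. For Arntl2 hairpin TRCN0000095703 the lung change minus the culture change was -4.32, and for Klf5 hairpin TRCN0000055284 it was 3.96. How each depends on single libraries is given with the results.

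Some members had reads in libraries of other pools, above the highest share in the 53 day 0 libraries of other pools. Values are reads scaled to a library total of 1000000. For Klf5, TRCN0000055284 was at 80.7 in lung library 17A, 3.19 in 17B and 1.00 in culture 16E (day 0 highest 0.66). TRCN0000055285 was at 117 in lung 16D and 80.4 in lung 10C (day 0 highest 10.18). TRCN0000055286 was at 2.45 in lung 8A (1.5), and TRCN0000055287 at 10.2 in culture 6/7A and 5.31 in lung 17B (5.10).

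For Arntl2, TRCN0000437965 was at 121 in lung 17A, 4.25 in 17B and 18.2 in culture 3B (day 0 highest 1.71). TRCN0000442230 was at 35.6 in lung 17A, 2.12 in 17B, 6.53 in lung 16D and 2.08 in culture 16/17A (0.43). TRCN0000095702 was at 8.60 in lung 16D, 4.00 in lung 5B and 3.86 in culture 16/17A (1.82). TRCN0000095703 was at 14.2 in lung 16D and 1.49 in culture 16/17A (0.00). The source of these reads was not tested.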

How the results depend on the processing

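The falls of Klf5 hairpins TRCN0000055286 and TRCN0000055287 from day 0 kept their direction and call under all 23 alternatives in lungs and in culture, as did the culture calls of Arntl2 hairpins TRCN0000095702, TRCN0000095703 and TRCN0000437965. Over these alternatives the culture change ran from -2.97 to -1.09 for TRCN0000095702 and from -4.64 to -2.71 for TRCN0000095703. Leaving out 1 replicate letter moved the number of called hairpins to between 150 and 385 for lungs against day 0, 486 and 600 for culture against day 0, and 140 and 251 for lungs against culture. Members called between lungs and culture were 0 to 3 when a letter was left out, and 1 with DESeq2, with the replicate block, and with either culture set of pool 10 alone. The replicate block ended the call of TRCN0000055284 between lungs and culture and gave 243, 571 and 198 calls. Of libraries with a same-letter partner, 16 of 49, 32 of 59 and 17 of 49 correlated best with it.

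These uncalled values changed sign. TRCN0000442230, lungs against day 0, was -0.07 with plain totals, and TRCN0000437965 was between -0.89 and 0.12 with 1 letter left out. TRCN0000055285, culture against day 0, was between -0.37 and 0.11 with 1 letter left out. Lungs against culture gave 0.32, 0.20 and 0.16 for TRCN0000055285 and 0.21, 0.09 and 0.05 for TRCN0000055286 with control totals, deposited values and TMM over 2 groups. TRCN0000095702 was 0.27 with edgeR, 0.39 with DESeq2 and 0.12 without lung 10C, and between -3.95 and 0.12 with 1 letter left out. The cause was not tested. The median of all hairpins was -0.73, -0.64 and -0.26 with plain totals and -0.57, -0.99 and 0.30 with control totals, against -0.14, -0.15 and -0.13. With 3 lung libraries in pool 10, and 3 or fewer reads of TRCN0000095703 in 10B and 10C, its exact lung level was not measurable.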

Other observations

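Lung library 16D, labelled for pool 16, and culture library 16/17A drew 71.0% and 14.9% of their reads from pool 10 hairpins. With those pool 10 reads scaled to 1000000, Arntl2 hairpins TRCN0000095702 and TRCN0000095703 were at 12.1 and 20.0 in 16D and at 25.9 and 9.97 in 16/17A. On the same plain scale they were at 271 and 8.44 in lung library 10A and at 92.5 and 0.76 in 10B. Whether the labels of lung libraries 10C and 16D are right was not tested, and neither 16D nor 16/17A entered a test of the Arntl2 hairpins.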
